A study of Mus musculus with 11 samples.

Results

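The Krüppel-like factors are a family of transcription factors, and 10 of their genes were followed in sorted muscle cells of the mouse at 3 postnatal ages. The members were Klf2, Klf3, Klf4, Klf5, Klf6, Klf7, Klf9, Klf10, Klf13 and Klf15, without the erythroid factor Klf1. Every probe set of the array that carried the symbol of 1 of these genes, and no other symbol, was kept. This gave 34 of the 45101 probe sets and 10 of 18193 named genes. Klf9 and Klf3 had 7 probe sets each, Klf6 had 5, Klf7 had 4, Klf5 and Klf13 had 3 each, Klf4 had 2, and Klf2, Klf10 and Klf15 had 1 each.

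Cells that were positive for green fluorescent protein (GFP) were sorted from the muscle of Pax3GFP/+ mice on a C57BL/6J background, in which 1 copy of Pax3, a transcription factor of the muscle lineage, carries GFP. All groups shared this genotype, so every group also lacked an intact second copy of Pax3. The gate takes cells by the GFP signal of that locus, and the purity of the sort was not tested here. The groups were postnatal day 1 (P1, n = 4 arrays), day 12 (P12, n = 4 arrays) and day 28 (P28, n = 3 arrays). The labels call the P1 and P12 cells proliferating satellite cells, the stem cells of skeletal muscle, taken from trunk muscles. The P28 cells came from abdominal, pectoral and intercostal muscle, and the P28 arrays also carry another suffix in their internal names. Age, muscle and a possible batch therefore cannot be told apart in any comparison with P28. Arrays of 1 age are biological replicates per the labels, which do not give the number of animals behind each, so p-values measure the spread between these arrays.

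Each value is the log2 expression of a probe set after robust multi-array averaging (RMA). A probe set was said to have risen or fallen where limma's moderated test gave an adjusted p under 0.05, with Benjamini-Hochberg adjustment over all 45037 probe sets that are not manufacturer controls. Changes are log2 differences, the later age minus the earlier, ± SE of the fit. Levels are compared between ages within a probe set and not between probe sets. Array medians lay between 5.50 and 5.57, and the bacterial Trp controls, which mark background, averaged 3.36 to 3.64. The 3' bias of the RNA, read as the log2 level of the 3' Gapdh control minus that of its 5' control, averaged 2.17 at P1 (SD 0.60, n = 4), 2.10 at P12 (SD 0.88, n = 4) and 0.90 at P28 (SD 0.10, n = 3). The P28 arrays ran from 0.79 to 0.99, below every earlier array (lowest 1.32, at P12). This bias therefore cannot be told apart from age either in any comparison with P28. The bias was higher in replicates 1 and 2 of P1 and P12 (array set 1) than in replicates 3 and 4 (array set 2). P1 replicate 1 stood apart from the other P1 arrays: it was the highest P1 array in 21 of the 34 Klf probe sets (61.8%), against 30.6% of every probe set tested.

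Krüppel-like factors share a carboxy-terminal zinc finger domain that binds CACCC and GC boxes in promoters and enhancers. They differ in their amino-terminal part, which recruits co-activators or co-repressors. Klf2, Klf4, Klf5, Klf6 and Klf7 are usually grouped as activators, although Klf4 and Klf5 can also repress. Klf3 is a repressor that works through the CtBP co-repressor. Klf9, Klf10 and Klf13 recruit the Sin3A co-repressor. Klf15 is a regulator of amino acid and lipid metabolism. Several of the genes are switched on within minutes to hours by serum, injury, shear stress or steroid hormones. In the muscle lineage of the mouse, Klf2 and Klf4 are known from myoblast fusion, Klf5 from differentiation together with MyoD, Klf7 from satellite cell quiescence, and Klf3 from the promoter of muscle creatine kinase.

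The promoters of Klf2, Klf4, Klf9 and Klf6 are shown because these genes held the largest rises, the first 3 at P28 against P12 and Klf6 at P12 against P1. Of the 10 members, 8 had a promoter in the RefSeq table (GRCm38.p6), and Klf5 and Klf10 had no entry. Each sequence is the 250 bases upstream of the annotated start, 5′ to 3′ on the strand of the gene. Capitals mark short motifs that a search found on either strand. The CACCC box, the site of the family itself, was searched by the letters of its name. The GC box, which Sp factors and some Klf proteins bind, was searched as GGGCGG. The half-site of the cyclic AMP response element was searched as TGACG. The CCAAT box, a common promoter element, was again searched by its name, and the MEF2 consensus by its published pattern. The windows are chr8:72318812-72319061 on the plus strand for Klf2, chr4:55532476-55532725 on the minus strand for Klf4, chr19:23140976-23141225 on the plus strand for Klf9 and chr13:5861239-5861488 on the plus strand for Klf6.
Klf2: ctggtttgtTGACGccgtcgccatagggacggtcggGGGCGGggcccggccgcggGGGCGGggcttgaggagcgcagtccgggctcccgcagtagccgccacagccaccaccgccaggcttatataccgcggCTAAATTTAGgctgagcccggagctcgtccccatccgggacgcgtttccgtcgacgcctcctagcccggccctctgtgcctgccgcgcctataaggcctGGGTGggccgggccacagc
Klf4: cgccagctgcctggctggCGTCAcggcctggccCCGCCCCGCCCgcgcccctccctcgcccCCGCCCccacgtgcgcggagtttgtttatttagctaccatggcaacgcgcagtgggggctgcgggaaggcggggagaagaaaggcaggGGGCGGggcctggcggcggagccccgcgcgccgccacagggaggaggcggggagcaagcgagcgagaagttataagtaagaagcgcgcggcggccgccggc
Klf9: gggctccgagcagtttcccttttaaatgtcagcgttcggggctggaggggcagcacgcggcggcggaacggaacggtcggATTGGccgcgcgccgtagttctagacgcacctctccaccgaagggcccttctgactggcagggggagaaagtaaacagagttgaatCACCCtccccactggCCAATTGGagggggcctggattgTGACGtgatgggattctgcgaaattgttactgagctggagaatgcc
Klf6: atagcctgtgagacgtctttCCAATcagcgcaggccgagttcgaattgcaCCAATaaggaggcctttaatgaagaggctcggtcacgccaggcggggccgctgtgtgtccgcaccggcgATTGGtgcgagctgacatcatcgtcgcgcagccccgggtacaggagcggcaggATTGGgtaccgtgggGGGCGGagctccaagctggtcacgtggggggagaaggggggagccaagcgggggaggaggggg

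The Klf2 window held 1 CACCC box, 2 GC boxes, 1 half-site and 1 match to the MEF2 consensus, which began 118 bases upstream of the start. Of 32851 promoter windows of the same length, 2.92% held the MEF2 consensus. The Klf4 window held 4 GC boxes, of which an adjoining pair overlaps by 1 base, and 1 half-site. The Klf9 window held 1 CACCC box, 1 half-site and 3 CCAAT boxes, of which 2 overlap on opposite strands. The Klf6 window held 4 CCAAT boxes and 1 GC box. A CACCC box was found in 52% of all windows, a GC box in 32.7%, a half-site in 17.8% and a CCAAT box in 33.8%. The CArG box, which serum response factor binds, was searched as well and was found in none of these 4 windows, against 1.47% of all windows. These matches describe letters in the windows and no binding was measured.

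At P28 against P12, 19 of the 34 probe sets rose and 1 fell, from 9 of the 10 genes, while 29.4% of all probe sets were called, 13.5% upward and 15.9% downward. The median change of the 34 was 0.86, against -0.05 for all probe sets. At P12 against P1, 7 rose and 0 fell, from Klf3, Klf6 and Klf9, while 4.84% of all probe sets were called, 3.25% upward and 1.59% downward. The median there was 0.33, against 0.01 for all probe sets. At P28 against P1, 24 rose and 0 fell, against 35.0% of all probe sets called, 17.6% upward and 17.4% downward, and the medians were 1.16 and -0.05. An F test for any difference among the ages passed for 24 of the 34, against 36.3% of all probe sets.

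The count at P12 against P1 depended on the setting. With the replicate number as a block, 11 Klf probe sets were called, the 4 added ones being of Klf9. The P28 arrays of the same numbers, which pair no samples, were in these blocks too. Whether same-numbered P1 and P12 arrays are true pairs was not tested. Leaving out P1 replicate 1 gave 13 calls, leaving out P1 replicate 3 or 4 gave 3 each, and leaving out P12 replicate 1 gave 4. Array set 1 alone gave 2 and array set 2 alone 11. Probe sets of 1 gene share its transcript, so the family was also counted with 1 probe set per gene, the one with the highest mean. On that count 5 of 10 genes rose at P28 against P12, against 15.5% of all genes, while 15.4% of all genes fell. At P12 against P1, 2 of 10 rose, against 3.94% of all genes rising and 1.85% falling. At P28 against P1, 7 of 10 rose, against 19.9% rising and 16.3% falling.

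**Figure D1:**
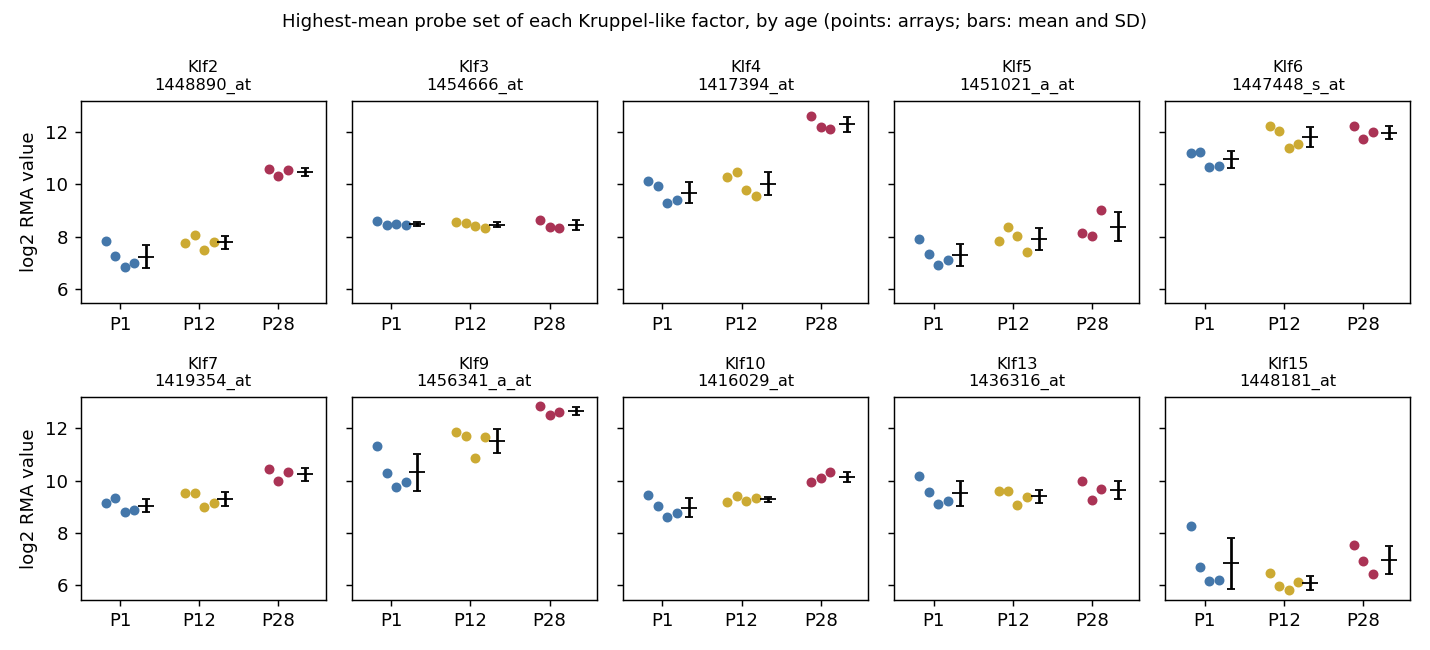
Log2 expression of the highest-mean probe set of each of the 10 Krüppel-like factors (vertical axes) at P1, P12 and P28 (horizontal axes), with 1 point per array and the bars at the mean and SD. Klf2 and Klf4 stand higher at P28 than at the earlier ages, Klf6 and Klf9 already differ at P12, and Klf3, Klf13 and Klf15 gave no call in these probe sets.

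Klf2, an activator known from endothelial cells and resting lymphocytes, is at chr8:72319062-72321654 (GRCm38.p6). Its single probe set 1448890_at was at 7.83, 7.27, 6.83 and 6.99 at P1, 7.77, 8.07, 7.49 and 7.80 at P12 and 10.57, 10.30 and 10.56 at P28. All 3 P28 arrays lay above every P1 and P12 array, while P12 and P1 overlapped. Klf2 rose by 2.69 ± 0.21 at P28 against P12 (adjusted p = 1.06e-06 by limma), which is 6.46-fold, and by 3.25 ± 0.21 at P28 against P1 (adjusted p = 1.2e-07). The difference between P12 and P1 was 0.55 ± 0.19 and did not pass (adjusted p = 0.128). It passed under 5 of the other settings, at 0.55 to 0.76, among them without P1 replicate 1 (0.76).

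Klf4, an activator and repressor best known from pluripotency and vascular cells, is at chr4:55527137-55532475 and rose at P28 in both of its probe sets. Probe set 1417394_at was at 10.11, 9.94, 9.29 and 9.39 at P1, 10.29, 10.47, 9.79 and 9.56 at P12 and 12.62, 12.18 and 12.10 at P28. Probe set 1417395_at was at 9.13, 8.56, 8.26 and 8.29 at P1, 8.92, 9.21, 8.88 and 8.75 at P12 and 11.86, 11.72 and 11.84 at P28. In both, every P28 array was above every earlier array and the P12 and P1 arrays overlapped. The rise at P28 against P12 was 2.27 ± 0.25 and 2.87 ± 0.19 (adjusted p = 1.73e-05 and 2.87e-07), which is 4.83-fold and 7.29-fold. The P12 against P1 values of 0.35 and 0.38 did not pass (adjusted p = 0.469 and 0.263). Without P1 replicate 1, 1417395_at passed there by limma, at 0.57 (adjusted p = 0.0338).

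Klf5, which is also an activator, is at chr14:99298691-99313412, and its probe sets did not move alike. Probe set 1451021_a_at was at 7.89, 7.33, 6.90 and 7.11 at P1, 7.84, 8.36, 8.04 and 7.40 at P12 and 8.12, 8.03 and 9.01 at P28. Its P28 arrays were above the P1 arrays and overlapped the P12 arrays, and it rose by 1.08 ± 0.28 at P28 against P1 (adjusted p = 0.00821). The steps of 0.60 and 0.48 did not pass (adjusted p = 0.223 and 0.228). Probe set 1451739_at fell by 0.48 at P28 against P12 (adjusted p = 0.0465), with overlapping arrays, and this call was lost under 12 of 19 other settings. At P28 against P1 it changed by -0.38 and did not pass (adjusted p = 0.0974). The third probe set, 1430255_at, averaged under 5 at each age and gave no call, but it passed at P28 against P12 (0.72) and against P1 (0.75) without P28 replicate 2.

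Klf6, an activator that is induced early after injury, is at chr13:5861489-5870393 and had calls at the first step in every probe set. All 5 rose at P12 against P1, with no overlap between the arrays of these ages, and all 5 rose at P28 against P1. Probe set 1418280_at was at 8.98, 8.74, 9.47 and 9.26 at P1, 9.97, 10.08, 10.15 and 10.36 at P12 and 10.79, 10.71 and 10.62 at P28. It rose by 1.02 ± 0.15 at P12 against P1 (adjusted p = 0.00201), a call that held under every setting run. Probe set 1447448_s_at, the one with the highest mean, was at 11.19, 11.25, 10.67 and 10.69 at P1, 12.22, 12.04, 11.40 and 11.54 at P12 and 12.22, 11.72 and 12.01 at P28. It rose by 0.85 ± 0.20 at P12 against P1 (adjusted p = 0.028) and overlapped between P28 and P12. That call was lost when P1 replicate 3 or 4 or P12 replicate 1 or 2 was left out, at changes of 0.71 to 0.77. In array set 1 alone, the calls of 1447448_s_at (0.90), 1427742_a_at (0.57) and 1459718_x_at (2.13) were lost. The calls of 1427742_a_at without P1 replicate 2 (0.87) or 3 (0.91) and of 1433508_at without P1 replicate 4 (0.86) were lost as well.

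The second step differed within Klf6. Probe set 1427742_a_at was at 7.68, 7.38, 7.53 and 7.68 at P1, 7.98, 8.21, 8.66 and 9.12 at P12 and 10.28, 10.05 and 10.42 at P28, and its P28 arrays stood above all others. It rose by 1.76 ± 0.22 at P28 against P12 (adjusted p = 5.54e-05). Probe set 1418280_at rose by 0.57 (adjusted p = 0.0176), a call lost with the Gapdh 3' to 5' difference as a covariate (0.28), after a further quantile normalization (0.52) and without P12 replicate 1 (0.51) or P28 replicate 1 (0.53). The other Klf6 probe sets changed by 0.08 to 0.19 and did not pass. With the covariate, 1447448_s_at and 1433508_at passed at 0.72 and 0.70. Probe set 1459718_x_at, whose suffix marks possible cross-hybridisation, shares its source accession with 1447448_s_at, so these may not be separate measurements.

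Klf7, an activator at chr1:64029448-64122345, rose at P28 in all of its 4 probe sets, by 0.89 to 1.69 against P12 and by 1.13 to 1.98 against P1. Probe set 1419354_at, with the highest mean, was at 9.16, 9.33, 8.79 and 8.90 at P1, 9.52, 9.53, 9.01 and 9.13 at P12 and 10.45, 9.97 and 10.33 at P28. All 3 P28 arrays lay above the P12 and P1 arrays, and it rose by 0.95 ± 0.18 at P28 against P12 (adjusted p = 0.00121). Probe set 1419355_at had the largest change of the 4, at 7.10, 7.01, 7.24 and 7.28 at P1, 7.48, 7.26, 7.46 and 7.61 at P12 and 9.32, 8.99 and 9.11 at P28. Its P28 arrays stood clear of all the others, with a rise of 1.69 ± 0.13 (adjusted p = 9.64e-07). At P12 against P1 the 4 probe sets differed by 0.21 to 0.29, and none passed by limma (lowest adjusted p = 0.198).

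**Figure D2:**
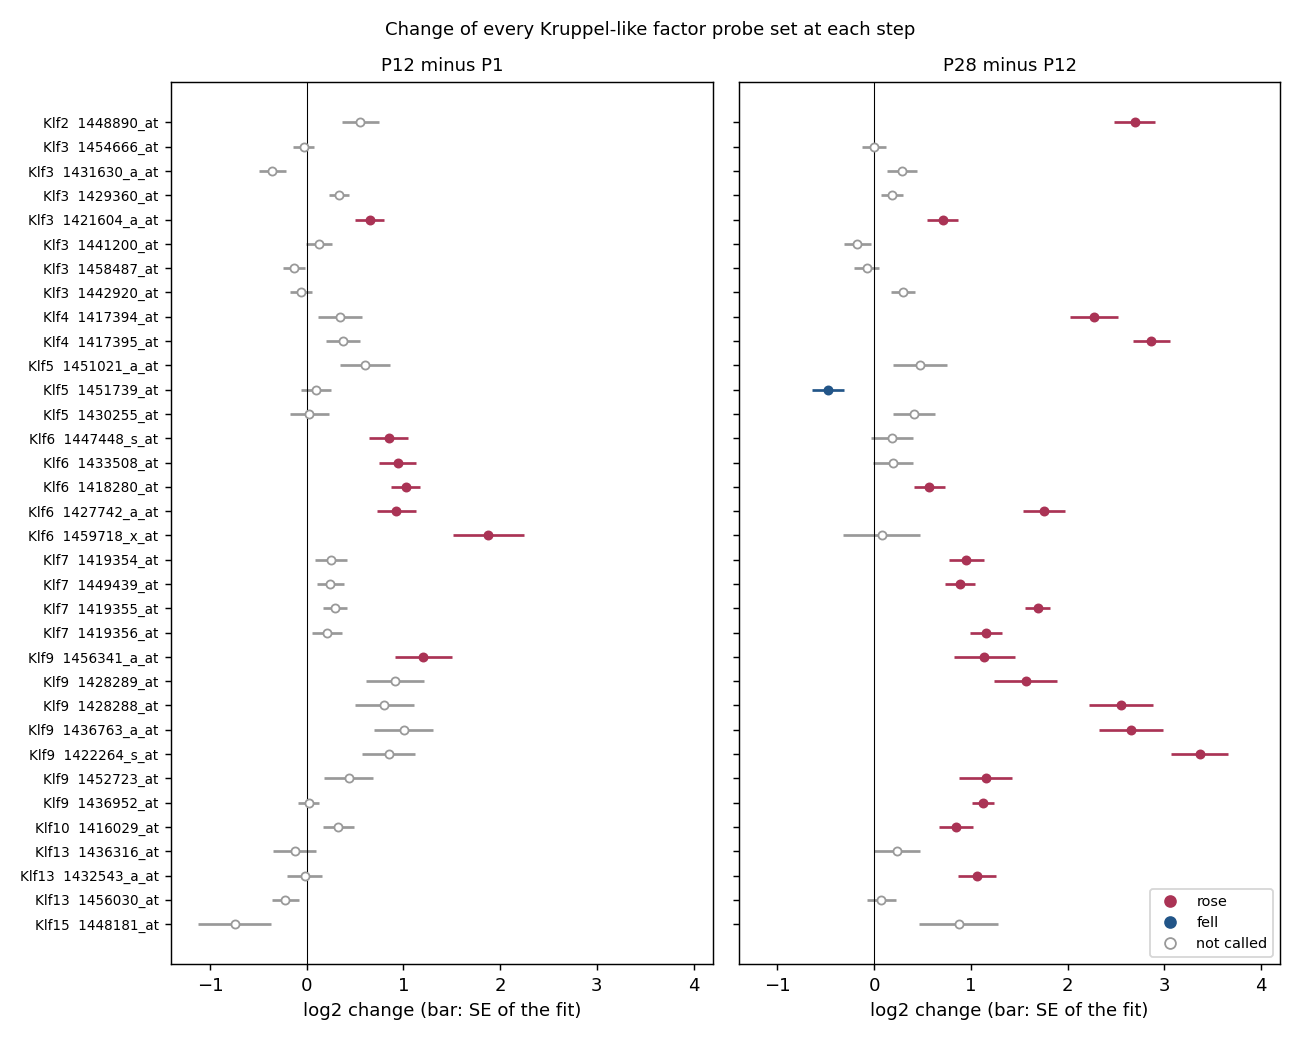
Log2 change of each of the 34 Klf probe sets at P12 minus P1 (left) and P28 minus P12 (right), with the bar at the SE of the fit, filled where called. At P28 against P12, 19 probe sets rose and 1, of Klf5, fell, and at P12 against P1 the 7 that rose belong to Klf3, Klf6 and Klf9.

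Klf9, a Sin3A-recruiting repressor and a known target of glucocorticoid and thyroid hormone receptors, is at chr19:23141226-23168129. All 7 of its probe sets rose at P28, by 1.13 to 3.36 against P12 and by 1.14 to 4.21 against P1, and in all 7 every P28 array lay above every P12 array. Probe set 1456341_a_at, with the highest mean, was at 11.32, 10.28, 9.75 and 9.94 at P1, 11.87, 11.71, 10.86 and 11.69 at P12 and 12.85, 12.52 and 12.63 at P28. It rose by 1.14 ± 0.32 at P28 against P12 (adjusted p = 0.0153), and without P28 replicate 1 this was 1.05 and no longer passed (adjusted p = 0.0534). It was also the only Klf9 probe set called at P12 against P1, at 1.21 ± 0.29 (adjusted p = 0.0315). Its P12 and P1 arrays overlapped through P1 replicate 1, and that call was lost when P1 replicate 2, 3 or 4, or P12 replicate 1, 2 or 4, was left out, at 1.02 to 1.19, and in array set 1 alone (0.99).

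Of the other 6 Klf9 probe sets, 4 rose by 1.57 to 3.36 at P28 against P12 and 2, 1452723_at and 1436952_at, by 1.15 and 1.13. Probe set 1428288_at was at 9.54, 8.37, 7.90 and 7.97 at P1, 9.60, 9.31, 8.76 and 9.33 at P12 and 12.16, 11.53 and 11.71 at P28. It rose by 2.55 ± 0.33 at P28 against P12 (adjusted p = 7.2e-05). Probe set 1422264_s_at was at 5.43, 4.07, 4.85 and 4.42 at P1, 5.86, 5.33, 5.08 and 5.89 at P12 and 9.33, 8.68 and 8.70 at P28, so that its P1 arrays lay near or under a level of 5 and its P28 arrays far above. Its rise of 3.36 ± 0.29 (adjusted p = 2.87e-06), or 10.3-fold, was the largest of the 34 at that step. With the replicate block, 1428289_at, 1428288_at, 1436763_a_at and 1422264_s_at also rose at P12 against P1, by 0.92, 0.80, 1.00 and 0.85.

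**Figure D3:**
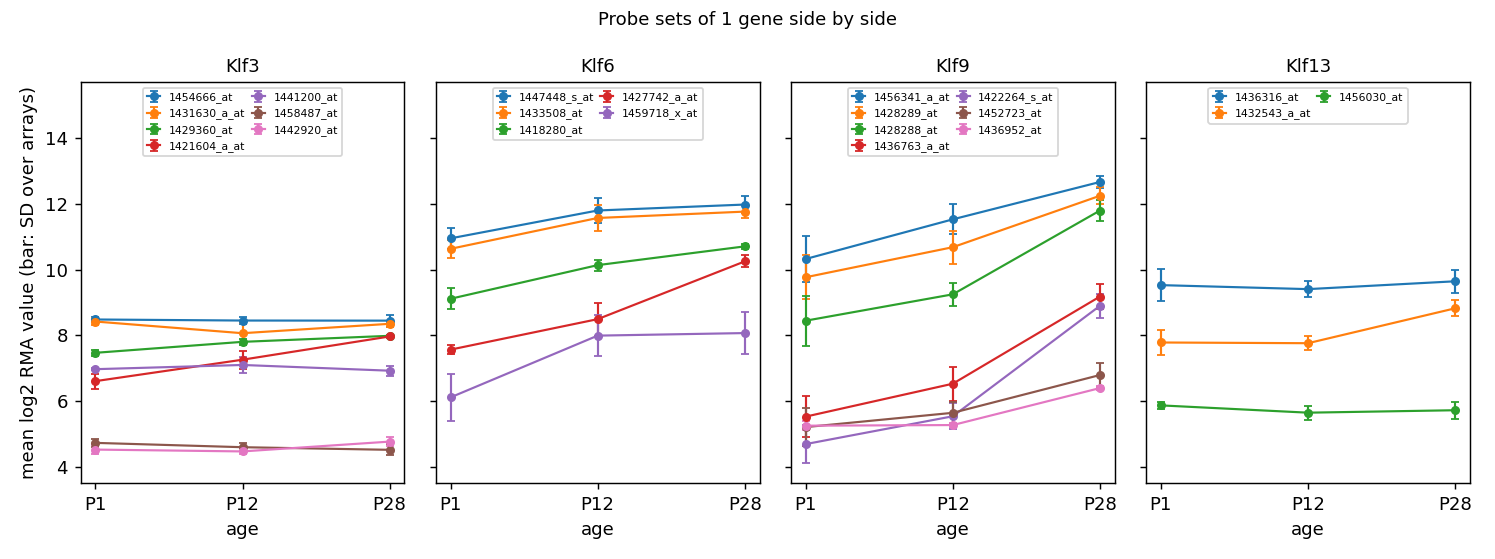
Mean log2 level (vertical axis, bars for the SD over arrays) of every probe set of Klf3, Klf6, Klf9 and Klf13 at P1, P12 and P28 (horizontal axes), with 1 line per probe set. All 7 lines of Klf9 climb between P12 and P28 and all 5 of Klf6 between P1 and P12, while 1 of the 3 Klf13 probe sets was called at P28 against P12.

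Klf10, an early gene of transforming growth factor beta signalling, is at chr15:38291464-38300711. Its probe set 1416029_at was at 9.45, 9.02, 8.62 and 8.78 at P1, 9.20, 9.42, 9.23 and 9.33 at P12 and 9.96, 10.12 and 10.33 at P28. The P28 arrays were all above the P12 and P1 arrays, and Klf10 rose by 0.85 ± 0.18 at P28 against P12 (adjusted p = 0.00252), but its 0.33 at P12 against P1 did not pass (adjusted p = 0.307).

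Klf13, known from lymphocytes and heart, is at chr7:63886351-63938915 and gave mixed values. Probe set 1436316_at, with the highest mean, differed by 0.24 ± 0.24 at P28 against P12 and did not pass (adjusted p = 0.499, 95% interval -0.28 to 0.75). Probe set 1432543_a_at was at 8.33, 7.60, 7.52 and 7.68 at P1, 7.70, 7.75, 7.54 and 8.05 at P12 and 9.08, 8.58 and 8.81 at P28, with P28 above the other ages and P12 overlapping P1. It rose by 1.06 ± 0.19 at P28 against P12 (adjusted p = 0.00106). The third probe set, 1456030_at, gave no call.

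Klf3, the CtBP-dependent repressor, is at chr5:64803521-64832901. The probe set with the highest mean, 1454666_at, was at 8.58, 8.43, 8.48 and 8.44 at P1, 8.55, 8.51, 8.40 and 8.34 at P12 and 8.65, 8.38 and 8.31 at P28. All ages overlapped, and the difference between P28 and P12 was near 0 (95% interval -0.26 to 0.25). In contrast, probe set 1421604_a_at was at 6.62, 6.79, 6.29 and 6.72 at P1, 7.24, 6.90, 7.55 and 7.34 at P12 and 7.97, 8.02 and 7.91 at P28, with the ages in ascending order and no overlap. It rose by 0.65 ± 0.15 at P12 against P1 (adjusted p = 0.0244) and by 0.71 ± 0.16 at P28 against P12 (adjusted p = 0.00466). The first call was lost when P1 replicate 3 or 4, or P12 replicate 1, 3 or 4, was left out (0.55 to 0.69) and in array set 1 alone (0.36). The second was lost with the Gapdh covariate (0.56). Of the other 5 Klf3 probe sets, 1429360_at rose by 0.52 at P28 against P1 (adjusted p = 0.00251), and 4 gave no call. Of these 4, 1431630_a_at changed by -0.36 at P12 against P1 (adjusted p = 0.184 by limma), opposite to 1421604_a_at. It passed there with the Gapdh covariate, and at P28 against P12 without P12 replicate 3. Probe set 1442920_at passed in both comparisons with P28 after a further quantile normalization.

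Klf15, which drives amino acid breakdown and is a glucocorticoid receptor target, is at chr6:90461043-90491803 and was the member without a call. Its probe set 1448181_at was at 8.27, 6.70, 6.18 and 6.20 at P1, 6.46, 5.99, 5.81 and 6.13 at P12 and 7.53, 6.94 and 6.44 at P28. P1 replicate 1 was the highest array, and the 3 ages overlapped. The difference was 0.87 ± 0.41 at P28 against P12 (adjusted p = 0.129, 95% interval -0.01 to 1.75) and -0.74 ± 0.38 at P12 against P1 (adjusted p = 0.32). The change at P12 against P1 was -0.27 without P1 replicate 1. Without that array, the 0.87 at P28 against P12 passed, as it did in a fit of P28 and P12 alone. It also passed with the replicate block, at 0.77.

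Markers of other cell types, several of which are known to express Krüppel-like factors, also rose at P28. In a sorted bulk sample, more cells of a type and more RNA per cell cannot be told apart. At P28 against P12, 9 of 10 endothelial markers, 5 of 10 macrophage markers, all 7 measured neutrophil markers, 5 of 9 fibro-adipogenic markers, 6 of 8 pericyte and smooth muscle markers, 4 of 5 measured erythroid markers and all 10 muscle fibre markers rose, and 0 of any of these lists fell. In that comparison 15.5% of all genes rose and 15.4% fell. Of the 10 satellite cell markers, 3 rose and 0 fell, and no marker of that list averaged under 5 at any age. Among 7 Schwann cell and melanocyte markers limma called 0 (3 at an unadjusted p under 0.05), and Dct, Tyr, Tyrp1 and Mlana averaged under 5 at all ages.

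The level of each list was taken as the log2 of its summed linear signal. That of the neutrophil list ran from 8.99 to 10.73 at P1, from 8.56 to 9.38 at P12 and from 13.35 to 14.73 at P28. That of the endothelial list ran from 9.35 to 10.13, from 9.72 to 10.34 and from 11.26 to 12.03 at the same ages. For the macrophage list the ranges were 10.40 to 11.11, 10.14 to 10.50 and 11.59 to 12.62, and Fcgr1 averaged under 5 at all ages. The muscle fibre list reached 12.30 to 12.70, 12.40 to 13.48 and 15.19 to 15.72. For the erythroid list the ranges were 7.72 to 8.12, 8.16 to 8.65 and 10.40 to 12.59, with Hba-a1 under 5 at all ages. The ranges of the other lists at these ages were those of fibro-adipogenic cells (13.44 to 14.12, 13.52 to 14.13 and 14.17 to 14.69), pericytes and smooth muscle (12.29 to 12.88, 12.66 to 13.34 and 13.16 to 13.40) and satellite cells (13.18 to 13.78, 13.37 to 13.75 and 13.96 to 14.22). Within P28 the neutrophil list was at 14.58, 14.73 and 13.35 in replicates 1 to 3. The part of the cell types of all these lists in the Klf changes at P28 was not tested. At P12 against P1, where Klf6 rose, limma called 0 endothelial and 0 neutrophil markers (0 of each at an unadjusted p under 0.05) and 0 of 5 erythroid markers (1 at that p). Of the pericyte and smooth muscle markers 2 rose and 1 fell, and 1 macrophage and 1 fibro-adipogenic marker fell. In the same comparison 6 muscle fibre and 2 satellite cell markers rose, while 3.94% of all genes rose and 1.85% fell.

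**Figure D4:**
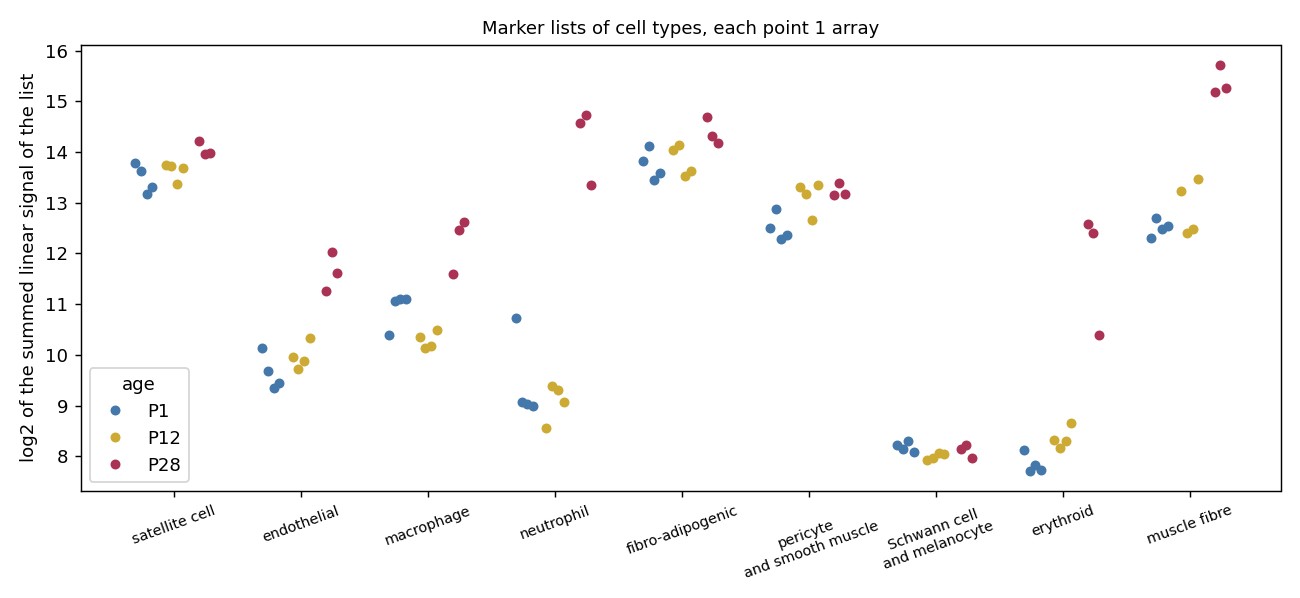
Level of each cell type marker list, as the log2 of its summed linear signal (vertical axis), with 1 point per array, coloured by age. The lists run along the horizontal axis. The neutrophil list is at 13.35 to 14.73 at P28 and at or under 10.73 at the earlier ages, and the Schwann cell and melanocyte list stays between 7.93 and 8.29.

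Gene groups tied to the family were described by counts, with the highest-mean probe set of each gene. Of 6 other Klf genes measured, Klf1 (2.82) and Klf16 (1.01) rose and Klf14 (-1.77) fell at P28 against P12, and Klf14 averaged under 5 at P28. In that comparison 15.5% of all genes rose and 15.4% fell. By limma, 0 of 6 were called at P12 against P1 (0 at an unadjusted p under 0.05), where 3.94% of all genes rose and 1.85% fell. Klf1 is the erythroid factor and is itself 1 of the 4 erythroid markers counted as rising. Among 7 Sp factors, the nearest relatives of the family, 0 rose and 0 fell at either step by limma, against the same shares of all genes. Of these, Sp5, Sp7 and Sp8 averaged under 5 at all ages. At an unadjusted p under 0.05 there were 0 at P12 against P1 and 1 at P28 against P12. At P28 against P1, 1 rose, namely Sp4, against 19.9% of all genes rising and 16.3% falling. Of 18 co-factors and regulators of the family, 2 rose and 3 fell at P28 against P12, where 15.5% of all genes rose and 15.4% fell, so that these shares lie near those of all genes, and 0 were called at P12 against P1 by limma (2 at an unadjusted p under 0.05). Wwp1, a ubiquitin ligase, rose by 0.88 and Fhl3, a LIM-domain partner of Klf3, rose by 0.82. Sin3a (-0.79), Ep300 (-0.61) and Fbxw7 (-0.61) fell. These were named after their values were seen.

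Of 15 measured genes known as targets of Klf proteins, 8 rose and 1, Npnt, fell at P28 against P12, against 15.5% of all genes rising and 15.4% falling. The count does not take into account which Klf protein acts on a target, or whether it activates or represses it. The largest changes were those of Ckm, muscle creatine kinase, by 3.96 and of Fbxo32, a ubiquitin ligase of muscle wasting, by 2.29, and Ckm is also a muscle fibre marker of the list above. At P12 against P1, Ccnd1, the cell cycle regulator cyclin D1, rose by 1.65 and Lgals3, galectin 3, rose by 1.67, and 0 targets fell. Of all genes, 3.94% rose and 1.85% fell in that comparison. Lgals3 also rose at P28 against P12, by 1.06.

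Immediate early genes, which cells switch on within minutes of a stimulus and of handling, were listed because several Klf genes are known to respond in the same way. Of 19 measured, 11 rose and 0 fell at P28 against P12, against 15.5% and 15.4% of all genes, and limma called 0 at P12 against P1 (6 at an unadjusted p under 0.05). Egr3 rose by 2.28 and Ier5 by 2.26. Among those not called were Fos (0.02), Jun (0.22) and Egr1 (-0.46). The cells of all ages passed through enzyme digestion and sorting, and the part of that handling was not tested. Of 12 glucocorticoid targets, 9 rose and 0 fell at P28 against P12, against the same shares of all genes, with Zbtb16 at 3.46 and Sgk1 at 2.66. Sgk1 (1.09) and Pdk4 (0.92) also rose at P12 against P1, where 3.94% of all genes rose and 1.85% fell.

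**Figure D5:**
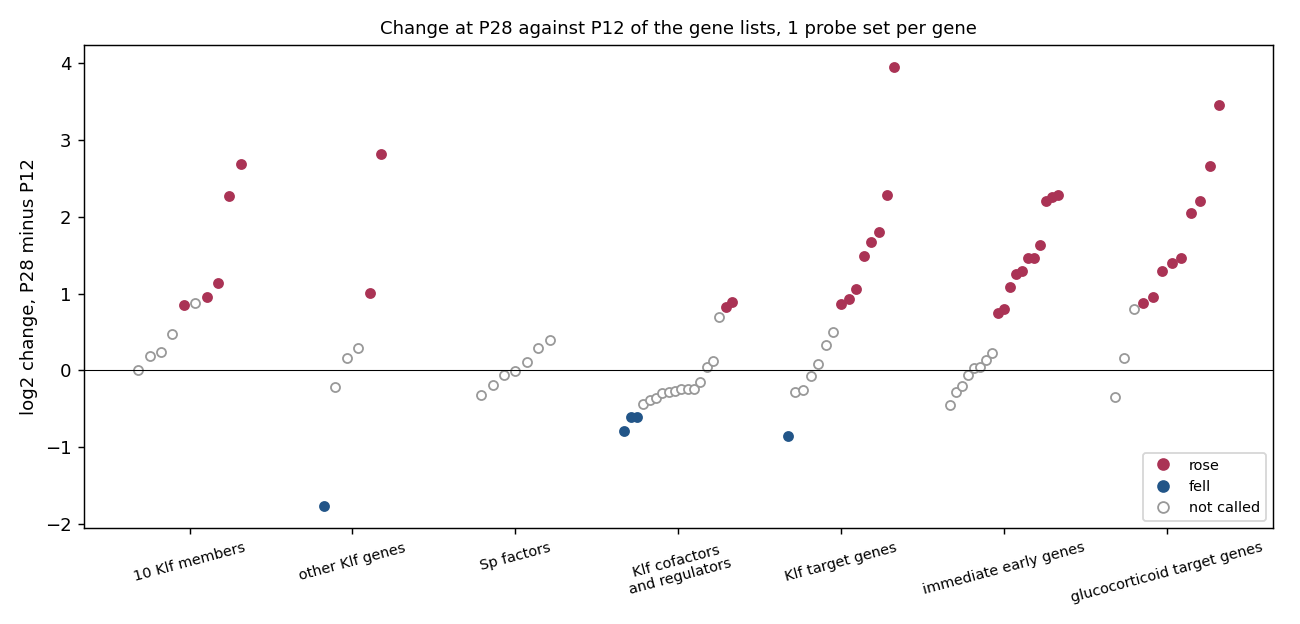
Log2 change at P28 minus P12 (vertical axis) of each gene of the Klf members and of the related gene lists (horizontal axis), with 1 point per gene, filled where called. Of the 10 members 5 rose, of 19 immediate early genes 11, of 12 glucocorticoid targets 9 and of 7 Sp factors 0. The Sp factors Sp5, Sp7 and Sp8 averaged under 5 at all ages. Of all genes, 15.5% rose and 15.4% fell.

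Among 12742 genes, the profiles nearest to Klf2 over the 11 arrays, by root mean square difference of centred log2 values, were those of Icam1 (0.0958), Rnf125 (0.155), H2-K1 (0.192), H2-D1 (0.202) and Gfpt2 (0.207). Icam1 is an adhesion molecule for leukocytes, and H2-K1 and H2-D1 are class I histocompatibility genes. The profiles nearest to Klf4 were those of Csrnp1 (0.237), Col5a3 (0.249), Egr3 (0.263), Fbxo32 (0.264) and Fabp4 (0.273). Egr3 is an immediate early gene and Fabp4 a fatty acid binding protein of adipocytes and capillaries. All of these 10 profiles were higher at P28 than at the earlier ages, which follows from how they were chosen.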

How the data were processed

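GFP-positive cells of 11 samples were measured on the Affymetrix Mouse430_2 array, and the deposited values are log2 RMA values of 45101 probe sets. Per the submitters' processing notes, RMA and affy were used along with Affymetrix Expression Console. The notes do not give versions or the order of use, and they do not say whether all arrays were processed together. The values were used as they stand. A probe annotation gave 34945 probe sets 1 symbol, 932 several and 9160 none, beside 64 controls left out. All 10 members were matched by Entrez identifier to the RefSeq gene table (GRCm38.p6).

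Titles gave the age of each array. Differences between ages were fitted in R 4.3.3 with limma 3.58.1 (lmFit on group means over all 11 arrays, contrasts, eBayes with 8 residual and 5.819 prior degrees of freedom, two-sided) and adjusted by Benjamini-Hochberg over 45037 probe sets. The test was also run on simulated data with independent normal noise. That run does not cover effects shared by the probe sets of an array, such as the 3' bias. The precision is limited by the number of arrays. No pair of arrays was identical (0 pairs).

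Every member probe set is counted, and those not named are covered by counts or ranges. Genes of the lists were named where they were called the same way at both steps or had the 2 largest changes. Other genes, among them Klf16, Npnt, Sin3a, Ep300, Fbxw7, Fos, Jun and Egr1, were named after their values were seen. The 5 genes with the nearest profile were named for the 2 members whose highest-mean probe set had the largest range of age means. The members and lists were chosen with earlier results of these data known. The replicate block put arrays of the same number in the same block at every age, P28 included. Deviations of same-numbered P1 and P12 arrays correlated in all 4 pairs (0.143, 0.207, 0.311 and 0.182). Correlations between arrays of different numbers were not computed, and the 2 array sets differ in 3' bias at both ages, so a pairing by number was not established. Same-numbered deviations in comparisons with P28 did not correlate in this way (-0.122 to 0.093). Alternatives were other normalizations, array weights, eBayes options, the replicate and array set blocks, a 3' bias covariate, each array set alone, fits of 2 ages, 1 probe set per gene and leaving out each array.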

Additional observations from a re-analysis of the deposited data

Results flagged for a closer look

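Among 68 groups of 4 arrays, 1 had an array far from the others. For Klf6 probe set 1459718_x_at, P1 replicate 1 was at 7.18, while the other P1 arrays were at 5.60 to 5.85. The gap to the nearest array was 0.84 of the range of the group, above Dixon's critical value for 4 samples. Chance flags about 1 in 20 groups. The rise of this probe set at P12 against P1 had no overlap even with that array, and its suffix marks possible cross-hybridisation.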

How the results depend on the processing

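Directions of called values were kept in every setting run (0 reversed), while 52 uncalled values changed sign. The count of Klf probe sets called at P12 against P1 (7) was 12 with array weights, 11 with the replicate block, 2 in array set 1 alone, 11 in array set 2 alone, 2 of 10 with 1 probe set per gene and 3 to 13 without 1 array each. Over all probe sets that comparison (2181) gave 1195 with 1 probe set per gene, 3426 with the Gapdh covariate, 4065 with the array set block, 230 in array set 1 alone and 1029 to 2213 without 1 array each. At P28 against P12, the 20 Klf calls were 5 of 10 with 1 probe set per gene and 17 to 21 without 1 array, and the 13229 over all probe sets were 5716, 8697 with the covariate and 10272 to 13445 without 1 array. At P28 against P1, the 24 Klf calls were 7 of 10 with 1 probe set per gene and 24 to 25 without 1 array, and the 15753 over all were 6656 and 13131 to 15901. The F test's 24 were 7 of 10 and 23 to 25. Of the alternative values of single probe sets, 707 of 755 kept their side of the threshold at P12 against P1, 627 of 653 at P28 against P12 and 648 of 653 at P28 against P1. The P28 calls of Klf2, Klf4, Klf7, Klf10 and 6 of 7 Klf9 probe sets held in every setting. Causes of these shifts were not tested. The fit with 1 probe set per gene also held fewer features, and that of each array set fewer arrays. The replicate block changed calls of Klf9 at P12 against P1 and of Klf15 at P28 against P12 (0.77), and it added a fall of Klf5 1451739_at at P28 against P1 (-0.46), and the P28 numbers pair no samples. Dim probe sets and the number of arrays limit the precision of the low levels.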

Other observations

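The following values were picked after they were seen. P1 replicate 1 was the highest P1 array in 10 of 12 glucocorticoid targets (83.3%), and P28 replicate 1 was the highest P28 array in 10 of 12 as well. Some other lists had such shares too, and some did not. High shares in P1 replicate 1 were 100% of the neutrophil, 90% of the endothelial, 80% of the satellite cell and 78.9% of the immediate early genes. In P28 replicate 1 they were 100% of the fibro-adipogenic and 80% of the satellite cell genes. Low shares in P1 replicate 1 were 14.3% of the Sp factors, 20% of the macrophage, 20% of the muscle fibre and 22.2% of the fibro-adipogenic genes. In P28 replicate 1 they were 0% of the muscle fibre, 10% of the endothelial, 10% of the macrophage, 12.5% of the pericyte and smooth muscle and 14.3% of the Sp factor genes. For the 34 Klf probe sets the counts were 21 (61.8%) and 23 (67.6%), against 30.6% and 31% of every probe set tested. The P1 arrays of Klf15 read 8.27, 6.70, 6.18 and 6.20, and those of Zbtb16, a glucocorticoid target, read 8.16, 6.20, 5.90 and 6.06, in both cases with replicate 1 highest. At P28, Klf15 was at 7.53 in replicate 1 and at 6.94 and 6.44 in the others, and Zbtb16 at 11.00, 8.27 and 8.86.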
